A study of Mus musculus with 2 samples.

Results

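The EphB receptors and their ephrin-B ligands were examined in the mouse forebrain at embryonic day 14.5. The family was taken by gene symbol as the 5 receptor genes Ephb1, Ephb2, Ephb3, Ephb4 and Ephb6 and the 3 ligand genes Efnb1, Efnb2 and Efnb3, which makes 8 of the 21461 nuclear protein-coding genes in the tables. All 8 were found, with 27 annotated transcripts. The measurements came from 2 libraries in 1 group of strain B6NCrl embryos with no stated treatment, mutation or transgene. Each library started with 10 ng of RNA above 200 nt, and spike-in RNAs were included. The labels number them as biological replicates 1 and 2 and describe each as the forebrain of a single pup, collected on different days. The same labels give both libraries 1 shared donor identifier and a mixed or pooled sex, so how far the embryos were independent is not settled by them. With 1 group there is no contrast of conditions and no test between groups, and every SD below is over 2 libraries (n = 2).

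Eph receptors are receptor tyrosine kinases, and the B-class ephrins are ligands that span the membrane, so both partners are held on cell surfaces and meet where cells touch. Binding starts forward signalling through the receptor's kinase and reverse signalling through the cytoplasmic tail of the ligand. In the forebrain the system is known for guiding commissural axons, for keeping neural progenitors in place and for shaping synapses. In vessels Efnb2 marks arteries and Ephb4 marks veins.

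The 2 libraries held 35310017 and 29250404 expected counts, which are estimated reads, and 1.87% and 2.19% of them fell on spike-ins. Levels are given as TPM, a share of all transcripts that is corrected for transcript length. All 9 listed forebrain markers reached a TPM of 1 in both libraries, against 59.6% of nuclear protein-coding genes. Blood, vessel, meningeal, microglial and choroid plexus markers were also present. The 6 red blood cell markers summed to 11279 and 13964 TPM. The 6 choroid plexus markers, of which 5 reached 1 TPM in both libraries, summed to 817 and 828 TPM, mostly Ttr (764 and 778 TPM). The tissue was bulk, so fewer cells of a type and less RNA per cell cannot be told apart in any value below.

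The 3 ligand genes were the most abundant members per length. Their encoded cytoplasmic tails end in a short motif that binds PDZ-domain proteins, which is one route of reverse signalling. The last 36 coding bases are shown because all 3 genes were expressed at similar levels and their tails are nearly alike. The 4 codons of that terminal motif are in capitals, 5′ to 3′, from the GENCODE transcripts.
Efnb1: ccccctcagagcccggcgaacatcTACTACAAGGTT
Efnb2: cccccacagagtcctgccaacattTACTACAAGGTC
Efnb3: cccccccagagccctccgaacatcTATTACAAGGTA
Over the last 33 codons, Efnb1 and Efnb2 encode the same residue at all 33, and each shares 30 of 33 with Efnb3. The whole proteins, translated from the GENCODE coding sequences, were less alike, with 57.0% identity between Efnb1 and Efnb2, 44.5% between Efnb1 and Efnb3 and 44.1% between Efnb2 and Efnb3.

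Efnb2 (ENSMUSG00000001300.11, chromosome 8, 8617434 to 8661242, minus strand, GRCm38) was measured at 41.0 TPM in replicate 1 and 42.7 TPM in replicate 2, from 3936 and 3128 expected counts. Efnb1, an X-linked ligand gene (ENSMUSG00000031217.8, 99136130 to 99148991, plus strand), was at 38.7 and 37.8 TPM, from 2783 and 2105 counts. Efnb3, a ligand known for its role at the midline (ENSMUSG00000003934.5, chromosome 11, 69554092 to 69560205, minus strand), was at 32.1 and 41.0 TPM, from 2265 and 2230 counts. Efnb3 was the lowest ligand in replicate 1 and stood between the other two in replicate 2. The means were 41.8 ± 1.21 TPM for Efnb2, 38.3 ± 0.615 TPM for Efnb1 and 36.6 ± 6.33 TPM for Efnb3, and the spread of Efnb3 covered the gaps between them. Each ligand gene stood above 80.2% or more of the nuclear protein-coding genes.

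The 5 receptors covered a wider range. Ephb1, a receptor for ephrin-B ligands known in axon guidance (ENSMUSG00000032537.10, chromosome 9, 101922128 to 102354693, minus strand), was the highest, at 23.0 TPM in replicate 1 and 27.6 TPM in replicate 2. Ephb6 (ENSMUSG00000029869.7, chromosome 6, 41605482 to 41620509, plus strand) followed at 16.9 and 21.1 TPM. Per length, these 2 receptors stood well above the other 3 in both libraries. In expected counts, Ephb2 (1689 and 1375) exceeded Ephb6 (948 and 1011). Ephb2, which is known in commissural axons and at synapses (ENSMUSG00000028664.10, chromosome 4, 136647539 to 136835988, minus strand), was at 7.44 and 8.06 TPM. Ephb4, the venous receptor (ENSMUSG00000029710.11, chromosome 5, 137350109 to 137378669, plus strand), was at 5.17 and 6.81 TPM. Ephb3, which acts with Ephb2 in forming commissures (ENSMUSG00000005958.10, chromosome 16, 21204755 to 21223305, plus strand), was the lowest member, at 2.60 and 3.64 TPM. Its level rests on 242 and 247 expected counts, against 2386 and 2135 for Ephb1, so its counting error alone was 6.43% and 6.36%. The means were 25.3 ± 3.19 TPM for Ephb1, 19.0 ± 3.0 TPM for Ephb6, 7.75 ± 0.438 TPM for Ephb2, 5.99 ± 1.16 TPM for Ephb4 and 3.12 ± 0.735 TPM for Ephb3. All 8 members reached 1 TPM in both libraries, as did 59.6% of nuclear protein-coding genes. The median over all 21461 of these genes, detected or not, was 4.25 TPM, and of the 8 only Ephb3 lay under it. Among the genes at 1 TPM or more in both libraries, Ephb3 stood above 11.0%, Ephb4 above 22.4%, Ephb2 above 27.5% and Ephb6 above 49.6%. Ephb1 stood above 57.0% of those detected genes and each ligand above 66.8% or more.

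**Figure D1:**
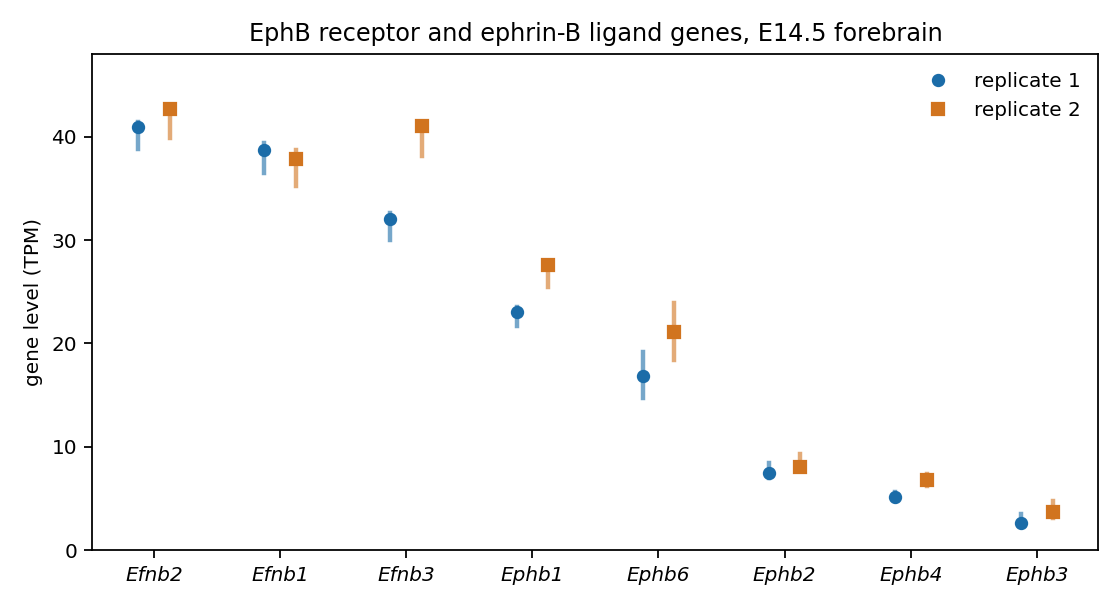
Level of each member gene in TPM (vertical axis, from 0), with replicate 1 as circles and replicate 2 as squares, and the deposited interval of each value as a bar. The ligands Efnb2, Efnb1 and Efnb3 lie between 32.1 and 42.7 TPM, above all 5 receptors, of which Ephb3 is lowest at 2.60 and 3.64 TPM.

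EphB6 is known as the member whose kinase domain is catalytically inactive, and the codons show where its gene departs from the others. The catalytic loop is printed first, with its 3 motif codons in capitals and 9 bases on each side, 5′ to 3′.
Ephb1: aattatgtgCACCGGGACctggctgct
Ephb2: aactacgtgCACCGTGACcttgctgct
Ephb3: aactacgtgCACCGTGACcttgctgcc
Ephb4: agctatgtcCACCGAGACctggctgct
Ephb6: gcctttgttCACCGAGCActctcggcc
The first 4 receptors encode the same 3 residues. Ephb6 encodes 2 of the 3, and its codon 788 differs, at the place of the catalytic aspartate. The second motif of the kinase, which binds the metal ion of ATP, is shown in the same way.
Ephb1: aaagtttctGACTTTGGTctctctcgc
Ephb2: aaggtgtctGATTTTGGGctctcacgc
Ephb3: aaagtctctGACTTTGGCctctcccgc
Ephb4: aaggtgtccGACTTTGGCctctccaga
Ephb6: aaggtggcaCGTCTCGGCcacagtcct
Ephb6 encodes 1 of these 3 residues and the other 4 receptors encode all of them. Over the whole protein, Ephb6 was the most distant receptor, with 46.4% to 51.1% identity to the others, while Ephb1, Ephb2 and Ephb3 shared 71.2% to 73.5% with one another.

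Members were next ranked within each library. A pair was called apart when the deposited intervals of the 2 genes did not overlap in either library and the direction was the same in both. By that rule 25 of 28 pairs lay apart. These were all 10 receptor pairs and all 15 pairs of a receptor with a ligand. The 3 pairs among the ligands were not apart by the rule, as each had separate intervals in a single library only. In replicate 1 Efnb3 (30.0 to 32.6 TPM) lay below Efnb1 (36.4 to 39.4 TPM) and Efnb2 (38.8 to 41.4 TPM). In replicate 2 Efnb1 (35.3 to 38.7 TPM) lay below Efnb2 (39.9 to 43.1 TPM). Efnb1 and Efnb3 changed places between the libraries, with log2 ratios of 0.27 and -0.12. The order in TPM was therefore the ligands, not apart from one another in both libraries, then Ephb1, Ephb6, Ephb2, Ephb4 and Ephb3. The closest neighbours among the receptors were Ephb2 and Ephb4, with a mean log2 ratio of 0.38 ± 0.20, and Ephb1 and Ephb6, with 0.42 ± 0.05. Ephb2 and Ephb4 no longer lay apart when annotated protein-coding transcripts alone were summed (log2 ratio 0.30 ± 0.27). The correction for length decides the call of 5 pairs. Ephb6 was higher than Ephb2 per length, by a log2 ratio of 1.29 ± 0.15, but Ephb2 had more counts, by 0.64 ± 0.28. In counts not divided by length, Ephb1 was no longer apart from Efnb1 (log2 ratio -0.10 ± 0.17) or from Efnb3 (0.01 ± 0.10). In the same counts Efnb2 lay apart from the other ligands, above Efnb3 by 0.64 ± 0.22 and with Efnb1 over Efnb2 at -0.54 ± 0.05.

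The receptors summed to 55.1 TPM in replicate 1 and 67.2 TPM in replicate 2, and the ligands to 112 and 122 TPM. Ligand transcripts thus exceeded receptor transcripts 2.03-fold and 1.81-fold, a log2 ratio of receptors over ligands of -0.94 ± 0.12. Of the receptor TPM, Ephb1 held 41.4% ± 0.554, Ephb6 31.0% ± 0.579, Ephb2 12.7% ± 1.06, Ephb4 9.76% ± 0.537 and Ephb3 5.07% ± 0.496. The ligand TPM were divided more evenly, with 35.9% ± 1.09 for Efnb2, 32.9% ± 2.48 for Efnb1 and 31.2% ± 3.57 for Efnb3. The share of Ephb6 fell to 24.0% when only transcripts with a CCDS entry, a curated coding annotation, were summed, and to 17.8% of receptor counts not divided by length.

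Transcript structure was examined through the deposited percent of each gene's TPM that a transcript holds. Of the 27 transcripts, 14 held a mean of 5% or more, 13 held less, and 8 had no count in either library. The ligand genes each had a single main transcript, with mean shares of 99.7% for Efnb1-201, 98.8% for Efnb2-201 and 100% for Efnb3-201. Efnb3-201, the only annotated transcript of its gene, had intervals apart between the libraries, 30.0 to 32.6 and 38.1 to 41.4 TPM. Those of Efnb1-201 and Efnb2-201 overlapped. Ephb3-201 was close to that in TPM, at 97.5% and 92.2%, but held 77.2% and 78.0% by posterior mean TPM. By posterior means its share was below those of Ephb1-201 (mean 83.1%) and Ephb2-202 (80.2%). It was above those of Ephb4-201 (66.8%) and Ephb6-201 (65.3%). In TPM, the other 4 receptor genes were divided among 2 or 3 transcripts with a mean share of 5% or more.

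Ephb1 had the largest shift in transcript share between the libraries among those 14. Ephb1-201 held 95.1% of the gene's TPM in replicate 1 and 73.8% in replicate 2, and Ephb1-202 held 2.62% and 22.8%. In levels, Ephb1-201 was at 21.9 and 20.3 TPM and Ephb1-202 at 0.600 and 6.28 TPM, from 55.2 and 443 estimated counts. The deposited intervals of Ephb1-202 did not overlap but were close, with 2.99 TPM as the upper bound in replicate 1 and 3.07 TPM as the lower bound in replicate 2. Those of Ephb1-201 overlapped. The transcripts differ by a coding exon of 123 bases, 41 codons, at chr9:101984082-101984204 on the minus strand, which follows codon 586 and lies before the catalytic loop codons 742 to 744. The exon, present in Ephb1-201, is in capitals between 12 flanking bases, and the junction of Ephb1-202 is printed under it.
Ephb1-201: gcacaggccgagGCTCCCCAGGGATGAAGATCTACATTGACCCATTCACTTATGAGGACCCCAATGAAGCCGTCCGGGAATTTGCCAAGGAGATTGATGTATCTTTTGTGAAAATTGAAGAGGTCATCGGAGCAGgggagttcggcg
Ephb1-202: gcacaggccgaggggagttcggcg
The exon keeps the reading frame, and the encoded receptors have 984 and 943 codons. The transcripts also differ at their 3′ ends, with 1361 and 918 bases after the coding sequence, so the estimate does not rest on the exon alone. Reads across the junction were not analysed here.

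Ephb2 was carried mainly by Ephb2-202, at 86.5% and 85.0% of the gene's TPM. This transcript has 7786 bases after its coding sequence, more than any other main transcript of the family. Ephb2-201 held 10.9% and 5.86% and differs by 1 codon and by a shorter 3′ end of 1717 bases. The extra codon, at chr4:136675531-136675533 on the minus strand, is in capitals.
Ephb2-201: tactatgagaagCAGgagctcagtgag
Ephb2-202: tactatgagaaggagctcagtgag
The lower interval bound of Ephb2-201 was near 0 in replicate 2, so this minor form rests on little. Ephb2-204, a transcript with a retained intron, held 2.60% and 9.15%, at 0.190 and 0.740 TPM, from 10.7 and 31.4 estimated counts. Its intervals did not overlap, with 0.341 TPM as the upper bound in replicate 1 and 0.475 TPM as the lower bound in replicate 2. Of the Ephb2 counts, Ephb2-201 took 4.01% and Ephb2-204 1.46% on average, against 8.39% and 5.88% of the TPM.

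Ephb4-201 held 78.1% and 85.7% of Ephb4. Ephb4-203, with 18.1% and 6.63%, carries 27 more coding bases after codon 432, at chr5:137362363-137362389 on the plus strand, shown in capitals because they tell the forms apart.
Ephb4-203: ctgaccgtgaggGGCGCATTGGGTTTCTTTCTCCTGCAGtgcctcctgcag
Ephb4-201: ctgaccgtgaggtgcctcctgcag
Ephb4-202, with 3.83% and 7.71%, lacks a coding exon of 156 bases after codon 892, beyond the kinase motif codons. The 3 Ephb4 transcripts had overlapping intervals between the libraries. The lower bounds of Ephb4-202 were only 9.49e-06 and 1.9e-05 TPM, and that of Ephb4-203 was 0.0159 TPM in replicate 2. Ephb4-202 therefore rests on little in both libraries, and Ephb4-203 in replicate 2.

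Ephb6 was divided between a full-length and a short transcript. Ephb6-201, with 1014 codons, held 63.4% and 71.4% of the TPM, at 10.7 and 15.1 TPM. The intervals of Ephb6-201 did not overlap, with 11.1 TPM as the upper bound in replicate 1 and 13.6 TPM as the lower bound in replicate 2. Again, no share over all transcripts was counted to set beside this gap. Ephb6-203 is 459 nt long in 2 exons with 137 annotated coding bases, and held 36.6% and 28.7%, at 6.18 and 6.05 TPM. The 2 measures of its weight differ: it took 4.58% of the Ephb6 counts on average and 32.6% of the TPM. That part of the Ephb6 level therefore came from 50.9 and 38.4 estimated counts on a short model.

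**Figure D2:**
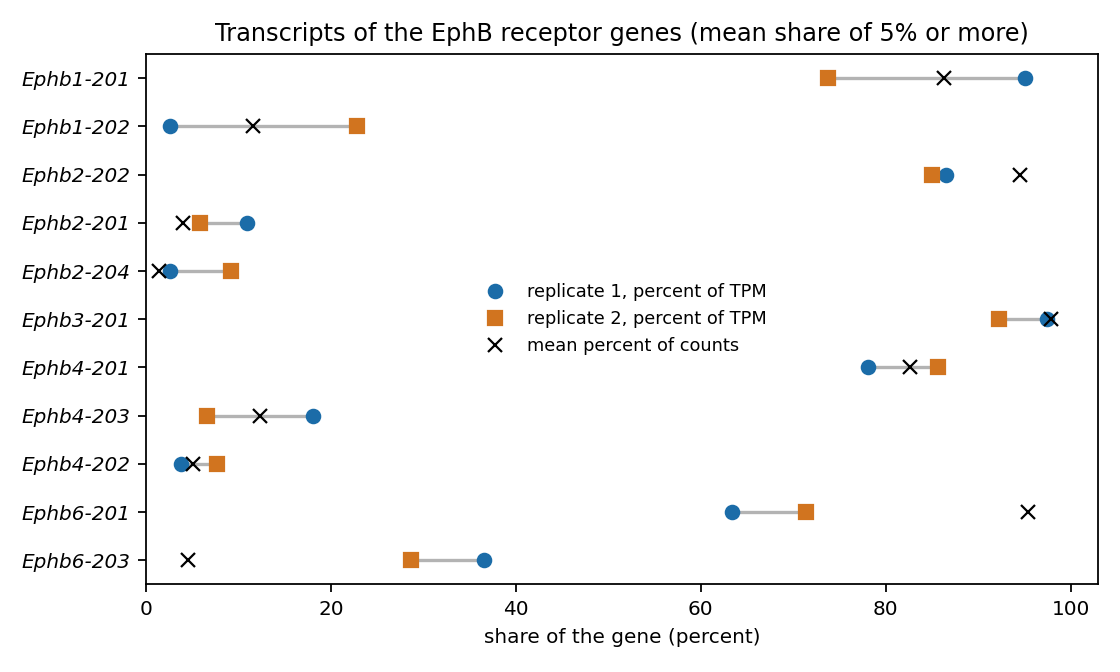
Share of each receptor gene held by its transcripts with a mean share of 5% or more, in percent of the gene's TPM for replicate 1 (circles) and replicate 2 (squares), with the mean percent of the gene's counts as crosses. Ephb1-202 moves from 2.62% to 22.8% of TPM, and Ephb6-203 holds 32.6% of TPM on average but 4.58% of counts.

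The 2 libraries were then compared for each member. A gene was called different at a mean TPM of 5 or more, a ratio of 2-fold or more and intervals that did not overlap. Of the 7 members that reached the mean level, 0 were called, against 53 of 11010 genes (0.481%). Ephb3, under the minimum, had the largest log2 ratio of the family in TPM, 0.49, while after TMM scaling of the counts Ephb6 had the largest, 0.30, and Ephb3 was at 0.24. With no minimum ratio, 3 of 7 members had intervals apart, Efnb3 (log2 ratio 0.35), Ephb1 (0.26) and Ephb4 (0.40), all higher in replicate 2. That share was close to the 45.9% of all tested genes.

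In TPM, 7 of 8 members were higher in replicate 2, but so were 72.4% of all tested genes, whose median log2 ratio was 0.14. TMM scaling of the counts moved that median to -0.02. After it, 5 of 8 members were higher, against 45.8% of tested genes, and Ephb2, Efnb1 and Efnb2 were lower. Ephb3 is among the 8 but lay under the minimum level of the tested genes. The median log2 ratio over all 8 members, Ephb3 included, was 0.29 in TPM and 0.12 after TMM scaling. The members that were higher under both scalings were Ephb1, Ephb3, Ephb4, Ephb6 and Efnb3. Cell type markers moved between the libraries as well. All 8 neuron markers were higher in replicate 2 in TPM (7 of 8 after TMM scaling), with sums of 3511 and 4351 TPM, while all 6 intermediate progenitor markers were lower under both scalings, with sums of 327 and 293 TPM. Of the 8 radial glia markers, 5 were lower in TPM and 7 after TMM scaling, with sums of 2137 and 2135 TPM. The 6 meningeal markers summed to 138 and 194 TPM and held the only gene of the 20 lists called different, Col1a1 (log2 ratio 1.05). The 6 pericyte markers summed to 113 and 155 TPM and the 10 endothelial markers to 215 and 239 TPM. Their part in the members' values was not tested.

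**Figure D3:**
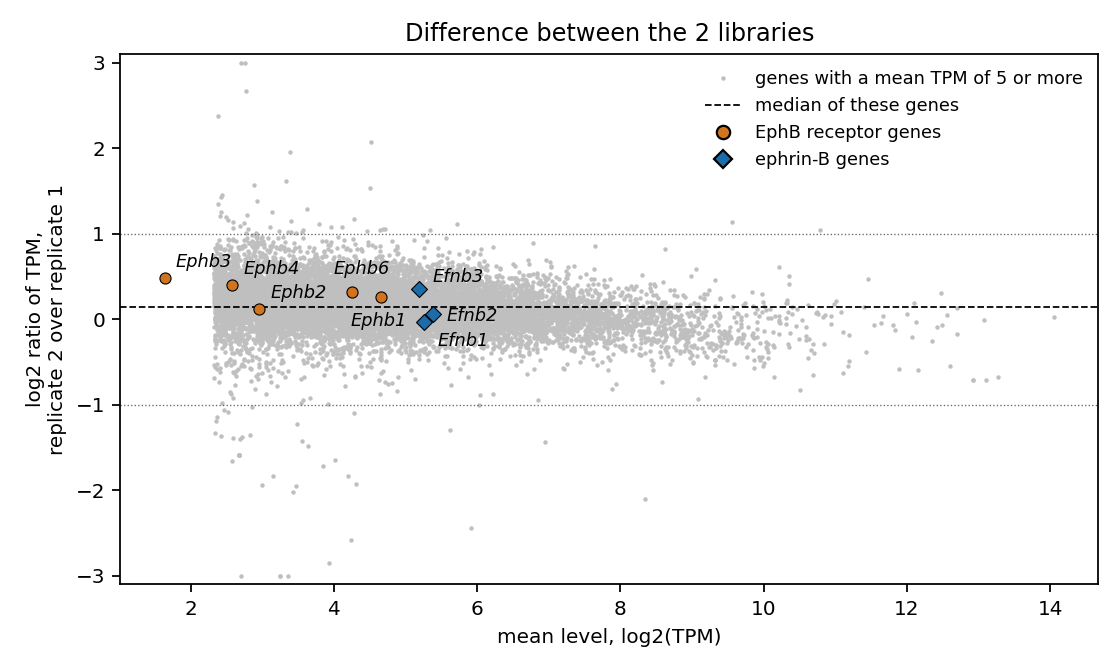
Log2 ratio of TPM, replicate 2 over replicate 1, against the mean level as log2(TPM) for genes with a mean of 5 TPM or more (grey, drawn at the edge where beyond 3 in either direction), with receptors as circles and ligands as diamonds. The members lie between -0.03 and 0.49, inside the dotted lines of a 2-fold difference, and the dashed line is the median of the genes, 0.14.

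Partners of the pathway were described from lists of its known components, which were measured in whole tissue and need not share cells with the members. Over all nuclear protein-coding genes, 59.6% reached 1 TPM in both libraries and the median was 4.25 TPM. The 27 forward signalling genes, adaptors, exchange factors and kinases that act under the receptor, had a median of 22.9 TPM, and 26 reached 1 TPM in both libraries. The highest were Afdn, a junction scaffold with a PDZ domain (88.3 and 109 TPM), and the adaptors Crk (86.9 and 92.5 TPM) and Grb2 (90.0 and 87.8 TPM). The adaptor Grb7 was at 0.310 and 0.350 TPM. Of the 16 reverse signalling genes, which bind or act with the ligand tail, 15 reached 1 TPM in both libraries and the median was 16.9 TPM. The PDZ protein Sdcbp led them at 253 TPM in both libraries, followed by Arhgef7, an exchange factor (50.7 and 59.4 TPM), and Gripap1, a partner of GRIP proteins (35.9 and 42.5 TPM). The scaffold Cnksr1 was at 0.0400 and 0.310 TPM, from 2 and 8 counts.

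Receptors and ligands of this family are cut and removed from the surface by proteases. Of 17 shedding and turnover genes, 15 reached 1 TPM in both libraries, against 59.6% of nuclear protein-coding genes, with a median of 16.6 TPM. The highest were Psenen (116 and 105 TPM) and Ncstn (67.8 and 80.1 TPM), both parts of gamma-secretase. The protease Rhbdl2 was at 0.490 and 0.280 TPM, and Mmp7 had 0 counts in both libraries, where a count of 0 allows up to 3. All 15 cytoskeletal effectors reached 1 TPM, led by the actin-severing protein Cfl1 (3231 and 3124 TPM) and the GTPases Cdc42 (772 and 812 TPM) and Rac1 (247 and 265 TPM). All 10 co-receptors and linked receptor systems did too, led by Dab1 (85.6 and 114 TPM), the tight junction gene Cldn5 (76.7 and 83.8 TPM) and the adhesion gene L1cam (45.7 and 66.2 TPM). Of the 85 genes in these 5 lists, 73 had a mean of 5 TPM or more, and 0 of those were called different between the libraries, against 0.481% of all tested genes. Epha4, an A-class receptor that also binds ephrin-B ligands, was at 69.9 and 75.4 TPM, above every EphB receptor in both libraries. Efna5, an A-class ligand that also binds Ephb2, was at 15.6 and 17.8 TPM, below the 3 ephrin-B genes.

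**Figure D4:**
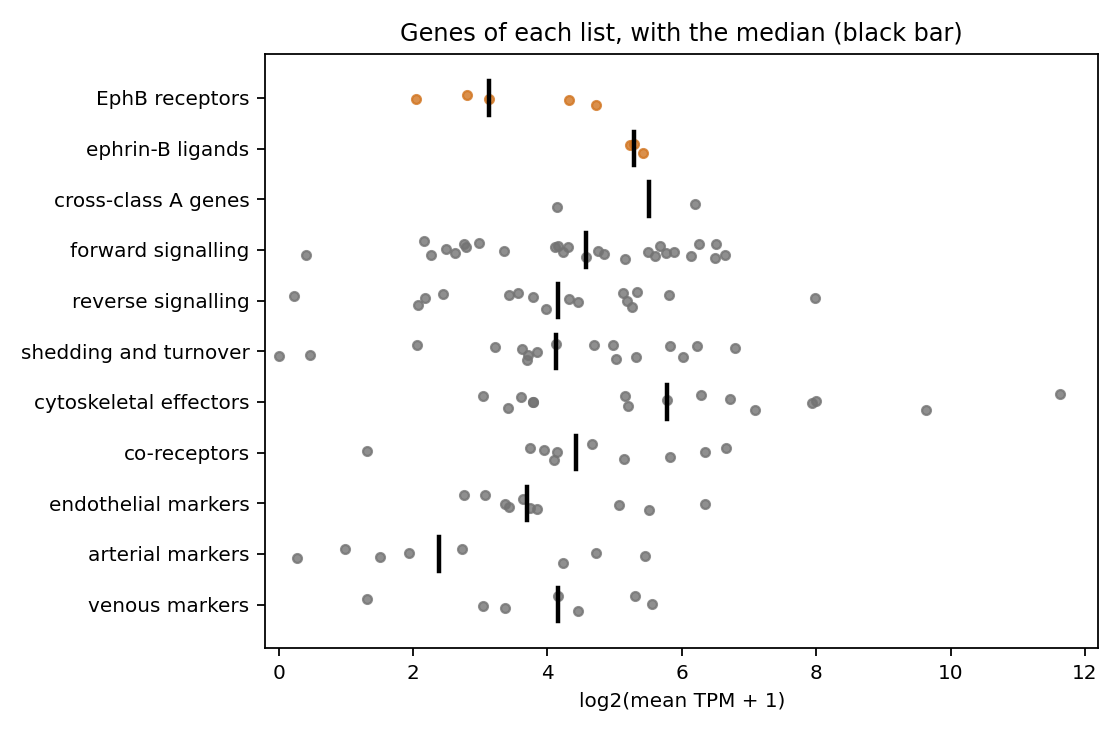
Mean level over the 2 libraries of each gene in 11 lists, as log2(TPM + 1), where a point is a gene and the black bar the list's median. The medians are 7.75 TPM for the receptors, 38.3 TPM for the ligands and 53.9 TPM for the cytoskeletal effectors.

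Efnb2 and Ephb4 were set beside vascular genes because they mark arteries and veins. The 10 endothelial markers had a median of 12.0 TPM. Efnb2, at 41.8 ± 1.21 TPM, exceeded 7 of the 8 arterial markers in both libraries. Nrp1, a co-receptor that neurons also express, was at 36.7 and 49.1 TPM, below Efnb2 in replicate 1 and above it in replicate 2. Hey1, a Notch target, was at 26.3 and 24.6 TPM and the connexin Gja4 at 17.4 and 18.2 TPM. Sox17 was at 5.03 and 6.20 TPM, Dll4 at 2.43 and 3.21 TPM and Unc5b at 1.75 and 1.95 TPM. The connexin Gja5 was at 0.550 and 1.42 TPM and the kinase Bmx at 0.180 and 0.230 TPM. The arterial markers therefore ran from far below Efnb2 to its level.

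Ephb4, at 5.99 ± 1.16 TPM, lay under 6 of the 7 venous markers. Nr2f2, a transcription factor of veins that some neurons also express, was at 42.2 and 49.8 TPM, and the transporter Slc38a5 at 35.6 and 41.2 TPM. Aplnr was at 20.4 and 21.6 TPM, and Nrp2, which neurons also express, at 13.5 and 20.2 TPM. Emcn was at 9.35 and 9.34 TPM and Vwf, a clotting factor of endothelium, at 7.20 and 7.19 TPM. Only Flt4, at 1.48 and 1.5 TPM, was lower than Ephb4. Which cells the Efnb2 and Ephb4 transcripts came from was not tested.

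Promoter windows of 300 bases from RefSeq (GRCm38.p6) were matched for 7 of the 8 members, and the window of Efnb3 was not matched. Counts of CpG in them were 35 for Efnb2, 34 for Ephb6, 24 for Ephb2, 23 for Ephb3 and 14 each for Efnb1, Ephb1 and Ephb4. Their median of 23 compares with 21 over 10022 protein-coding genes at 1 TPM or more in both libraries. The 3 genes with the fewest CpG ranged in level from 5.99 TPM for Ephb4 to 38.3 TPM for Efnb1. Ephb1 shares 152 exonic bases with Gm26846, a noncoding gene on the opposite strand with 22.1 and 72.2 counts, and Ephb4 shares 33 with Zan, with 5 and 6 counts. The sources used here do not state whether counting used the strand, and reads in those bases may belong to either gene.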

How the data were processed

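Reads were assigned to mm10 with GENCODE release M4, per the file headers and notes. The aligner, the quantifier and the use of strand are not given in the sources used here. The labels' protocols name mirVana extraction and link a protocol named after Smart-seq, which primes on poly(A) tails. The authors deposited expected counts per gene and transcript. The deposited TPM were scaled by the authors over all rows, spike-ins included. Each transcript's percent of its gene's level was deposited too. The deposited interval bounds are scores with no stated level, centred on the posterior mean TPM, so a TPM can lie near an edge of its interval. The deposited lengths are in nt.

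Names, types and coordinates came from GENCODE M21 (GRCm38), by ID without version, which matched 42462 of 43346 Ensembl genes. Of the 27 member transcripts, 26 had the same length in both releases. Coding sequences were translated with Biopython 1.88 and aligned for identity. Levels are means ± SD over 2 libraries, with no count test, as there is 1 group. TMM factors came from edgeR 4.0.16. Other steps used Python 3.11.15, pandas 2.3.3 and matplotlib 3.10.9. The calls were also run on simulated counts that held counting error only. That run says nothing about how the calls behave under the further spread between real libraries. A count of 0 was taken to allow 3 counts, for counting error only.

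The members and lists were chosen with earlier results of these data known. Genes named were all members, transcripts with a mean share of 5% or more, the 3 highest genes of each partner list and those under 1 TPM, all arterial and venous markers, Epha4 and Efna5. One gene that this rule names is not reported here. Alternatives were other levels (posterior mean, protein-coding or CCDS transcripts, rescaled TPM, counts), scalings, filters, fold thresholds and each library alone.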

Additional observations from a re-analysis of the deposited data

How the results depend on the processing

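The count of pairs apart, 25, ranged over the alternatives from 17 when a 2-fold difference in both libraries was asked to 27 in a single library. The count alone does not show which pairs: with counts not divided by length it was again 25, but 2 pairs of Ephb1 with a ligand were lost, 2 pairs among ligands were gained and the pair of Ephb2 and Ephb6 turned around. The log2 ratio of summed receptors over ligands stayed negative and was -0.57 with counts not divided by length and -1.13 with CCDS transcripts only, an alternative chosen after seeing the data. Leaving out a replicate gave -1.02 to -0.86. The share of Ephb6 in the receptors was 17.8% with counts not divided by length and 24.0% with CCDS transcripts, and 30.6% to 31.4% in single libraries. A single library of 2 always lies within 1 SD of their mean, so these last values say nothing about stability. Members called different numbered 0 under each alternative except with no minimum ratio, also chosen after seeing the data, where there were 3. All genes called numbered 53, with 34 higher and 19 lower in replicate 2. After TMM scaling they numbered 37, with 8 higher and 29 lower, so the main direction turned around. They numbered 37 of 11010 tested genes with a pseudocount of 1 TPM and 58 of 11524 with rescaled TPM. Looser rules gave 618 of 11010 at 1.5-fold and 5055 of 11010 with no minimum ratio. They gave 190 of 14758 at a mean TPM of 1 or more and 434 of 23912 with no filter on the mean TPM. Rescaling TPM to nuclear protein-coding genes raised the members' levels (Efnb2 to 50.8 TPM), and Ephb6 was at 12.9 TPM with CCDS transcripts. By posterior means, the share of Ephb3-201 was 77.6% and that of Ephb4-201 66.8%. Ephb3, with 242 counts in replicate 1, has the lowest depth of the members. No paired analysis was possible because there is 1 group.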
